A study of Mus musculus with 9 samples.

Results

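B lineage transcripts were followed in CD11b+ bone marrow cells through 9 genes, taken by symbol from the 23337 genes counted in every library. They are Cd79a, Cd79b, Vpreb1, Igll1, Ebf1, Pax5, Pou2af1, Cd22 and Ms4a1. Counts came from 9 male C57BL/6 mice, 3 per group, with 1 library per mouse, and the question addressed was whether tumour vesicles, given with or without a lipoprotein mimic, altered the RNA of these cells. The PBS group received 100 µl of PBS into the tail vein on days 1, 3 and 5. The group labelled EnzR exosome, here EnzR EVs, received on the same days 10 µg of vesicle protein in 100 µl. The vesicles came from enzalutamide-resistant CWR-R1 cells, a human prostate cancer line. The group labelled EnzR exosome + HDL NP, here EnzR EVs + HDL NPs, was given the same vesicles and, on days 0, 2 and 4, 100 µl of gold-cored nanoparticles that mimic high-density lipoprotein, at 1 µM by the labels; the methods state another concentration. No group had HDL NPs alone, and no sham injection on days 0, 2 and 4 is named for the other groups. The mice were bought at 3 to 6 weeks of age, and marrow was collected 24 h after the last injection. Cells were retained on a magnetic CD11b kit, whose purity is not given.

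CD11b, encoded by Itgam, is an integrin chain of neutrophils, monocytes and macrophages. B lymphocytes arise in the same marrow: EBF1 and PAX5 establish the lineage, and precursors carry a surrogate light chain made of the Vpreb and Igll1 proteins. The B cell receptor signals through the CD79a and CD79b pair. CD22 and CD20, the product of Ms4a1, mark later stages. Most B lineage cells carry little CD11b, so their transcripts stand beside a far larger myeloid background here. In bulk RNA, fewer B lineage cells and less of a transcript per cell cannot be told apart.

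Total counts ranged from 2575776 to 18110561 per library, and the summed counts of all 9 genes from 46 to 502. Values are CPM, counts made relative to library size with edgeR's TMM factors, and 3 counts, the floor used here, correspond to 0.160 CPM in the largest library and 1.65 CPM in the smallest, EnzR EVs replicate 1. Floors and intervals cover counting error only. Ribosomal Rn45s took 42.7% of the counts in EnzR EVs replicate 1, 20.3% in PBS replicate 1 and 14.2% in EnzR EVs replicate 3, and from 0.657% to 2.87% in the other 6 libraries. Itgam stood between 1389 and 2006 CPM in all 9 mice.

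The promoters of 4 of these genes are shown because the factors that build the B lineage programme are themselves among the genes measured. RefSeq promoters (GRCm38.p6), each covering 250 bases before and 50 after the start of transcription, matched 7 of the 9 genes in 8 windows. Capitals mark the EBF core CCCNNGGG and the E-box CAGNTG, in either orientation, the type of site bound by the Tcf3 product E2A. Windows of Ebf1, Pax5 and Pou2af1 had no match to either, and the 4 printed are those with one. The windows lie at chr16:16863936-16864235 (minus strand) for Igll1, chr16:16869206-16869505 (minus strand) for Vpreb1, chr7:24897247-24897546 (plus strand) for Cd79a and chr7:30878979-30879278 (minus strand) for Cd22.
Igll1: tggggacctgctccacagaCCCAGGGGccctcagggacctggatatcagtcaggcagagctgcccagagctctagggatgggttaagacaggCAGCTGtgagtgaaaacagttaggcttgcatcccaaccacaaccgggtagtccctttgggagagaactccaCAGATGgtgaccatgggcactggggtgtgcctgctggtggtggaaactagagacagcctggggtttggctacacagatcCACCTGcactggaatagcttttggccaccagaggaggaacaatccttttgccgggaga
Vpreb1: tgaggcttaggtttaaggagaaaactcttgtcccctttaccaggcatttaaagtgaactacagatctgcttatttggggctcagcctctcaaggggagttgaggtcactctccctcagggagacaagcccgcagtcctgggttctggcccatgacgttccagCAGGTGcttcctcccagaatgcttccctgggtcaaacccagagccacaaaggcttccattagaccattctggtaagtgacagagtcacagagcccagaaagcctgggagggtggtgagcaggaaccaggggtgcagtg
Cd79a: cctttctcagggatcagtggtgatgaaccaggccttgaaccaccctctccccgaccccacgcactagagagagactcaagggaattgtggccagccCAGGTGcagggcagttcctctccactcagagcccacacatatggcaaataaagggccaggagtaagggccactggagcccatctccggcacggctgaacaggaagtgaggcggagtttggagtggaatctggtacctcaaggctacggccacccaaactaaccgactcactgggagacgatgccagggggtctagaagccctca
Cd22: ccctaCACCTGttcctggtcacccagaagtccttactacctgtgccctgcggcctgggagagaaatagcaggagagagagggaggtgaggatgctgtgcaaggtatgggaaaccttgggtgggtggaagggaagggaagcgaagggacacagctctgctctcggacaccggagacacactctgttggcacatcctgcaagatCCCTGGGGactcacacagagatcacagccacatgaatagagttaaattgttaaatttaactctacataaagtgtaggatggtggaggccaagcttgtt

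The EBF core was found in 2 of the 8 windows, at −231 from the start in Igll1 (CCCAGGGG) and at −48 in Cd22 (CCCTGGGG), and in 13.7% of 32851 promoters of the same length. An E-box was found in 4 of the 8, once each in Cd79a, Vpreb1 and Cd22 and 3 times in Igll1, against 51.4% of all promoters. The octamer ATGCAAAT, to which the POU2AF1 coactivator is recruited, was found in 0 of the 8 and in 1.74% of all promoters. Both strands were searched, and no EBF match overlapped an E-box. These are matches of letters only.

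The most abundant of the 9 per length was Cd79b, at 4.72 ± 2.39 CPM per kb of exon (SD, n = 9 mice), above 72.9% of 20915 genes. Next in order were Cd79a at 1.57, Pou2af1 at 0.885, Cd22 at 0.622, Igll1 at 0.410, Ms4a1 at 0.351 and Vpreb1 at 0.300 CPM per kb. Both lineage-setting factors were lowest, Ebf1 at 0.0890 and Pax5 at 0.0373 CPM per kb. Neighbours in this order overlapped in their ranges over the 9 mice in every case. On the same scale Itgam stood at 342 CPM per kb CPM per kb. The 12 T cell genes in the files ran from 0.00276 for Trat1 to 2.19 for Cd3d, a value above that of 8 of the 9 B lineage genes, with Cd3e at 0.0539.

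**Figure D1:**
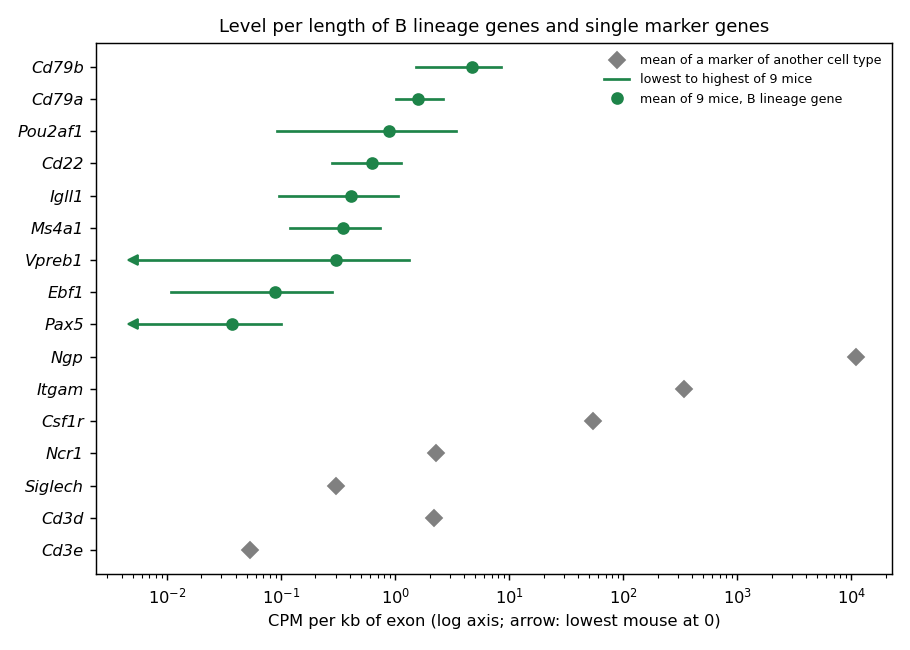
Mean CPM per kb of exon over 9 mice (log axis) for the 9 B lineage genes, with lines from the lowest to the highest mouse and an arrow where the lowest mouse had 0 counts, and for single markers of other cells (diamonds). Cd79b is the highest B lineage gene at 4.72 CPM per kb, far under Itgam at 342, and Pax5 is the lowest at 0.0373.

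Cd79a and Cd79b encode the paired chains that carry the signal of the B cell receptor. Cd79a (chr7:24897381-24902197) was at 3.17, 1.55 and 2.97 CPM in the PBS mice, at 3.84, 1.65 and 1.77 after EnzR EVs, and at 2.42, 1.49 and 1.75 after EnzR EVs + HDL NPs. The 3 groups overlapped, and the log2 fold change of EnzR EVs over PBS was −0.27 (standard error 0.454, adjusted p = 0.935 by edgeR's quasi-likelihood test). It ran from −0.55 without EnzR EVs replicate 1 to −0.019 without EnzR EVs replicate 2. Cd79b (chr11:106311341-106314762) was at 5.46, 10.1 and 12.0 CPM after PBS, at 2.19, 5.75 and 4.61 after EnzR EVs, and at 10.8, 6.20 and 3.63 after EnzR EVs + HDL NPs. The EnzR EV mice lay in the lower part of the range, and 1 of them stood above the lowest PBS mouse. The log2 fold change over PBS was −1.01 (standard error 0.451, unadjusted p = 0.0474, adjusted p = 0.928 by edgeR; two-sided exact permutation p = 0.20), and with HDL NPs it was −0.44 (standard error 0.421, adjusted p = 1.00 by edgeR). The latter value rested on single libraries: it was −0.13 without EnzR EVs + HDL NPs replicate 3, −0.21 without PBS replicate 3, −0.68 without PBS replicate 1 and −0.90 without EnzR EVs + HDL NPs replicate 1. Without the 3 libraries numbered 1, a choice made after seeing the data, it was −1.16 (unadjusted p = 0.00333, adjusted p = 0.775 by edgeR). That choice drops the lowest PBS mouse (5.46 CPM) and the highest EnzR EVs + HDL NPs mouse (10.8 CPM). It therefore favours a lower value, and its p-value is no support for one.

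The partner chains did not run in parallel from mouse to mouse. Cd79a gave 36.7%, 13.4% and 19.8% of the counts of the pair in the PBS mice, 63.6%, 22.3% and 27.8% after EnzR EVs, and 18.3%, 19.4% and 32.5% after EnzR EVs + HDL NPs. The 63.6% of EnzR EVs replicate 1 rests on 11 counts, with an exact 95% binomial interval of 30.8% to 89.1%. Within the PBS group, the interval of replicate 1 (23.4% to 51.7%) began above the upper end of that of replicate 2 (18.8%).

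**Figure D2:**
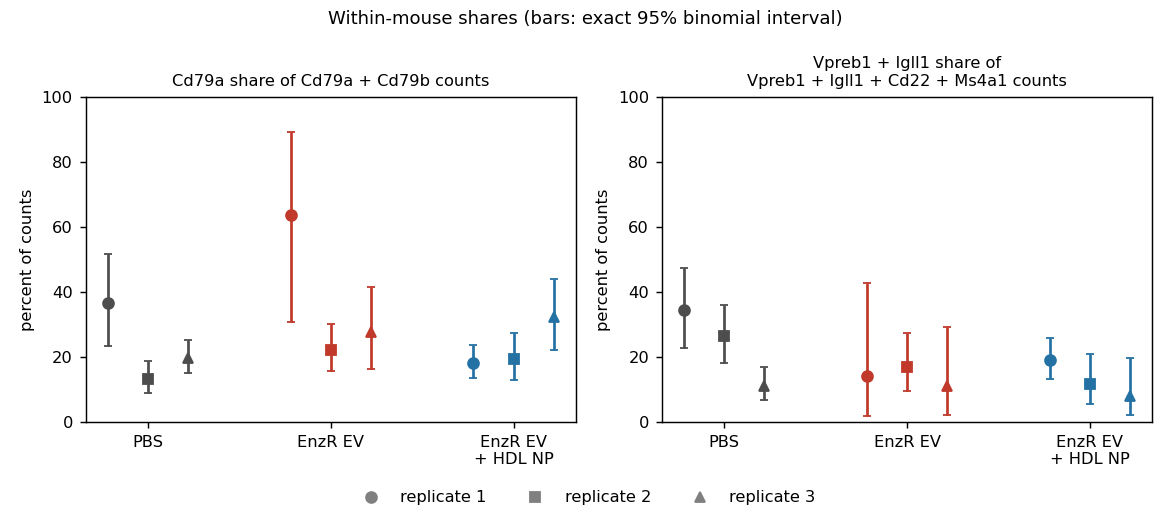
Share of Cd79a in the counts of Cd79a and Cd79b (left) and share of the surrogate light chain genes Vpreb1 and Igll1 in their counts plus those of Cd22 and Ms4a1 (right), in percent, per mouse with exact 95% binomial intervals. The Cd79a share runs from 13.4% to 63.6% and the surrogate light chain share from 8.16% to 34.4%.

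Vpreb1 and Igll1 encode the surrogate light chain, with which precursor B cells test a newly made heavy chain. Vpreb1 (chr16:16868403-16870843) had 9, 4 and 5 counts in the PBS mice, 0, 5 and 1 after EnzR EVs, and 10, 2 and 1 after EnzR EVs + HDL NPs. These counts were under the filter on low counts, so Vpreb1 was not in the fit, and the groups overlapped (exact permutation p = 0.20 for EnzR EVs against PBS). Its transcript is 97.5% identical to that of Vpreb2 over 686 bases, so that reads of the pair may have been lost or shared. Igll1 (chr16:16860671-16863985) had 13, 24 and 14 counts after PBS, 2, 8 and 2 after EnzR EVs, and 20, 7 and 3 after EnzR EVs + HDL NPs. In CPM it was at 2.29, 1.38 and 0.801 CPM after PBS, 1.10, 0.426 and 0.236 after EnzR EVs, and 1.13, 0.417 and 0.210 after EnzR EVs + HDL NPs. The 2 counts of EnzR EVs replicate 1 are under its floor of 1.65 CPM. In both vesicle groups 2 mice lay under every PBS mouse and 1 lay within their range. The log2 fold changes over PBS were −1.68 (standard error 0.775, unadjusted p = 0.0540, adjusted p = 0.928 by edgeR) and −1.22 (standard error 0.653, unadjusted p = 0.0901, adjusted p = 1.00 by edgeR). With 1 library left out the second ran from −2.11, without EnzR EVs + HDL NPs replicate 1, to −0.86.

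The surrogate light chain genes gave 34.4%, 26.4% and 11.1% of the counts shared with Cd22 and Ms4a1 in the PBS mice. The shares were 14.3%, 17.1% and 11.1% after EnzR EVs and 19.0%, 11.7% and 8.16% after EnzR EVs + HDL NPs. PBS replicates 1 and 2 had the highest shares of the 9, and PBS replicate 3 lay among the vesicle mice.

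Ebf1, Pax5 and Pou2af1 encode transcription regulators. Pax5 (chr4:44524757-44710487), which maintains B cell identity, had 5, 11 and 11 counts in the PBS mice, or 0.880, 0.633 and 0.629 CPM. After EnzR EVs it had 0, 3 and 1 counts (0, 0.160 and 0.118 CPM), and after EnzR EVs + HDL NPs 4, 2 and 3 counts (0.225, 0.119 and 0.210 CPM). The 6 values of vesicle-treated mice lay under the 3 PBS values. The floor of EnzR EVs replicate 1, at 1.65 CPM, is above every PBS value, so its 0 does not separate it from them. Pax5 met the filter on low counts only through the PBS libraries, where it was high. Its place in the fit, and the fitted p-values below, are therefore tied to the direction reported and are no separate support for it. The group means were 0.714 ± 0.144, 0.0926 ± 0.0829 and 0.185 ± 0.0572 CPM (SD, n = 3 each). The log2 fold change over PBS was −2.29 after EnzR EVs (standard error 0.666, unadjusted p = 0.00599, adjusted p = 0.928 by edgeR) and −1.85 after EnzR EVs + HDL NPs (standard error 0.551, unadjusted p = 0.00686, adjusted p = 1.00 by edgeR). With both vesicle groups set against PBS it was −2.07 (standard error 0.497, unadjusted p = 0.00175, adjusted p = 1.00 by edgeR), and the exact permutation p was 0.0119, the lowest value possible with 6 and 3 mice, which takes the 0 of EnzR EVs replicate 1 as under PBS. Without that library it was −2.01 (unadjusted p = 0.00207, adjusted p = 0.487 by edgeR). Without the 3 libraries rich in Rn45s it was −1.83 (unadjusted p = 0.0118, adjusted p = 0.532 by edgeR). Exons of 2 transcripts on the opposite strand overlap those of Pax5 by 125 and 636 bases, and the strand setting of the counting is not given in the sources used here. The same limit holds for Vpreb1, overlapped by 108 bases of Top3b, and for Cd22, overlapped by 479 bases of an antisense transcript.

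Ebf1 (chr11:44617317-45008091), which opens the B lineage programme, was at 1.23, 0.460 and 0.686 CPM after PBS, 2.74, 0.106 and 0.591 after EnzR EVs, and 0.957, 0.477 and 0.559 after EnzR EVs + HDL NPs. The EnzR EV mice included both the highest and the lowest value of the 9. The mean of that group was above PBS while the fitted log2 fold change was −0.27 (standard error 0.945, adjusted p = 0.973 by edgeR). That fold change was −1.30 without EnzR EVs replicate 1, 0.77 without EnzR EVs replicate 2 and 0.22 by DESeq2. Without the 3 libraries rich in Rn45s, which leaves replicate 2 alone in the EnzR EV group, it was −2.35. In the same fit EnzR EVs + HDL NPs against EnzR EVs gave 2.57 for Ebf1. Both values rest on the 2 Ebf1 counts of EnzR EVs replicate 2, under its floor of 0.160 CPM. Without that library EnzR EVs + HDL NPs against EnzR EVs gave −0.87 for Ebf1. Pou2af1 (chr9:51213708-51240080), a B cell coactivator, was at 3.34, 1.15 and 2.63 CPM after PBS, 8.78, 0.479 and 0.236 after EnzR EVs, and 2.08, 1.25 and 0.349 after EnzR EVs + HDL NPs. Here single libraries decided the value: over PBS the log2 fold change was −0.34 (standard error 1.16, adjusted p = 0.973 by edgeR) with all libraries and −2.52 without EnzR EVs replicate 1. It was 0.52 without EnzR EVs replicate 2, 0.49 without EnzR EVs replicate 3, and 0.30 by DESeq2 with all libraries.

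Cd22 and Ms4a1 encode surface proteins of B cells, an inhibitory coreceptor and CD20. Cd22 (chr7:30865402-30880342) was at 2.82, 2.93 and 5.66 CPM after PBS, 2.74, 2.61 and 1.42 after EnzR EVs, and 4.78, 2.86 and 2.37 after EnzR EVs + HDL NPs. The 3 EnzR EV mice lay under the 3 PBS mice, by a gap smaller than the spread within either group. The log2 fold change was −0.82 (standard error 0.444, unadjusted p = 0.0916, adjusted p = 0.928 by edgeR; exact permutation p = 0.10, the smallest possible). It ran from −1.08 without EnzR EVs replicate 2 to −0.55 without EnzR EVs replicate 3 and −0.39 without PBS replicate 3. Scaled by library size only, the groups overlapped, with EnzR EVs replicate 2 at 2.71 CPM and PBS replicate 1 at 2.67. Ms4a1 (chr19:11249675-11266241) was at 4.58, 1.55 and 3.03 CPM after PBS, 3.84, 0.745 and 1.42 after EnzR EVs, and 2.42, 1.19 and 0.768 after EnzR EVs + HDL NPs. All groups overlapped, with log2 fold changes over PBS of −0.98 and −0.99 (adjusted p = 0.928 and 1.00 by edgeR). With 1 library left out they ran from −1.50 (without EnzR EVs replicate 1) to −0.40 (without EnzR EVs replicate 2), and from −1.56 (without EnzR EVs + HDL NPs replicate 1) to −0.63 (without PBS replicate 1).

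**Figure D3:**
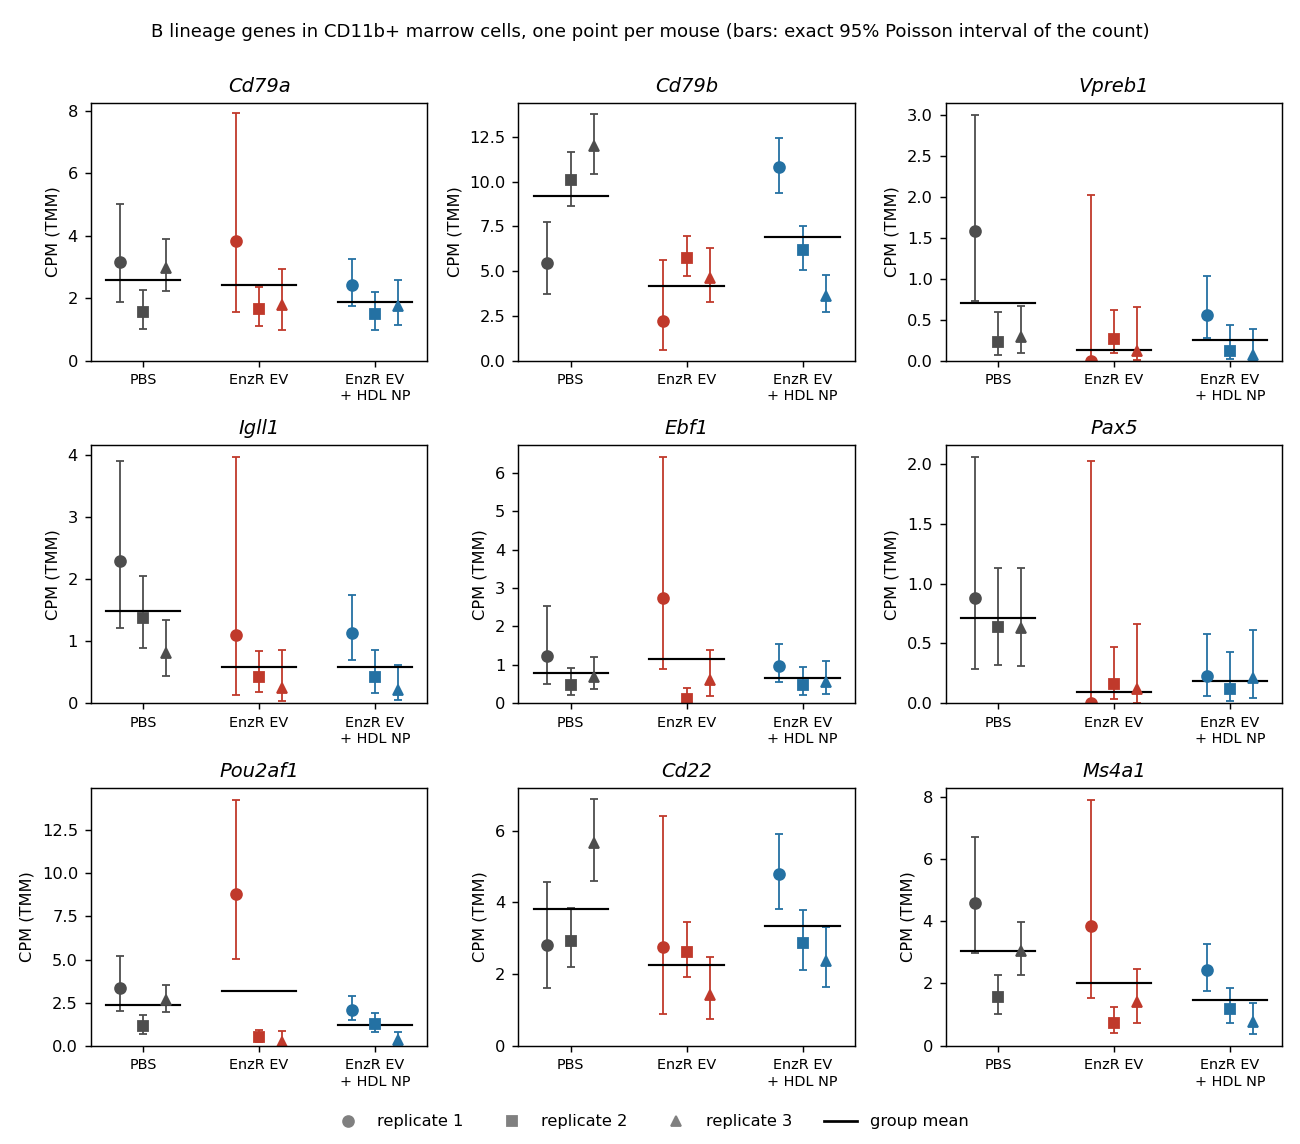
CPM of each B lineage gene in each mouse, with exact 95% Poisson intervals of the count, by group; marker shape gives the replicate number and the black line the group mean. Pax5 is the gene whose 6 vesicle-treated mice, at 0 to 0.225 CPM, are all under the PBS mice, at 0.629 to 0.880 CPM, although the interval of the 0 in EnzR EVs replicate 1 reaches above them.

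Across the genes, 8 of 9 passed the filter and 0 of these 8 changed by edgeR at an adjusted p under 0.05 after EnzR EVs, where 0% of the 12553 genes tested did. DESeq2 called 0 of the 9, with no adjusted p for 4 of them, where it called 14 of 23337 genes. By limma's voom 0 of the 8 were called, where 0 of 12553 genes were. At an unadjusted p under 0.05, 2 were lower by edgeR, against 1.92% of all genes tested: Cd79b, and Pax5, which passed the filter only through PBS. With replicate number as a block the 2 were Igll1 (unadjusted p = 0.0148) and Pax5 (unadjusted p = 0.0146), while Cd79b was at an unadjusted p of 0.0638, where 5.95% of all genes were below the threshold in either direction. The groups did not overlap, with EnzR EVs lower, for 2 (Pax5 and, with TMM scaling, Cd22), against 4.52% of all genes. For both this includes EnzR EVs replicate 1, whose depth does not separate it from the PBS mice. All 8 log2 fold changes were below 0, with a median of −0.90, where 6720 of the 12553 genes were below 0 and the median was −0.03. That count fell to 5 of 7 fitted genes without EnzR EVs replicate 2. The median was −0.40 without that library and −0.39 without PBS replicate 3. Other cell lists lay below 0 as well, with 8 of 8 erythroid genes (median −0.79), 5 of 6 basophil and mast cell genes (median −0.62) and 6 of 8 platelet genes (median −0.53). Their part in the B lineage values was not tested.

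After EnzR EVs + HDL NPs, 0 of the 8 passed against PBS (0% of all genes by edgeR). By DESeq2 and voom 0 did, where 2 of 23337 and 0 of 12553 genes did. Pax5, in the fit only through its PBS counts, was the 1 gene lower at an unadjusted p under 0.05, against 1.12% of genes. It was also the 1 gene whose groups did not overlap, against 6.21%. With replicate number as a block, 3 were lower at that threshold (Igll1, Pax5 and Ms4a1), where 3.79% of all genes were below it in either direction. Again all 8 log2 fold changes were below 0, with a median of −0.66 against −0.01 for all genes. It was −0.26 without PBS replicate 3, with 6 of 7 fitted genes below 0, −0.37 without EnzR EVs + HDL NPs replicate 2, again with 6 of 7, and −1.19 without EnzR EVs + HDL NPs replicate 1. Below 0 too were 8 of 8 NK cell genes (median −0.33), 8 of 8 platelet genes (median −0.62) and 6 of 6 basophil and mast cell genes (median −0.48), whose part was not tested. Both comparisons use the same 3 PBS mice. With both vesicle groups set against PBS, 0 passed by edgeR (0% of all genes), DESeq2 (14 of 23337 genes) or voom (0 of 12553 genes). Igll1 (log2 fold change −1.45, unadjusted p = 0.0327, exact permutation p = 0.0714) and Pax5 were lower at an unadjusted p under 0.05, against 1.41% of genes, and Pax5 alone did not overlap, against 0.932%, again counting the 0 of EnzR EVs replicate 1 as lower. Here too Pax5 was in the fit only through its PBS counts.

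EnzR EVs + HDL NPs against EnzR EVs asks whether the nanoparticles altered levels in mice given vesicles. None of the 8 passed by edgeR (0% of all genes). By DESeq2 and voom 0 did, where 1 of 23337 and 0 of 12553 genes did. At an unadjusted p under 0.05, 0 were higher, against 3.58% of all genes, and 0 were higher with no overlap, against 8.99%. The largest positive values were 0.61 for Cd22 (standard error 0.440, adjusted p = 0.543 by edgeR) and 0.58 for Cd79b (standard error 0.449, adjusted p = 0.566 by edgeR). Both rested on EnzR EVs + HDL NPs replicate 1, without which they were 0.26 and 0.097, and with another library left out they reached 0.88 and 0.87. In all, 3 of the 8 values were below 0. That number was 0 without EnzR EVs replicate 1 and 5 without EnzR EVs + HDL NPs replicate 1, so the direction in this comparison rested on single libraries.

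**Figure D4:**
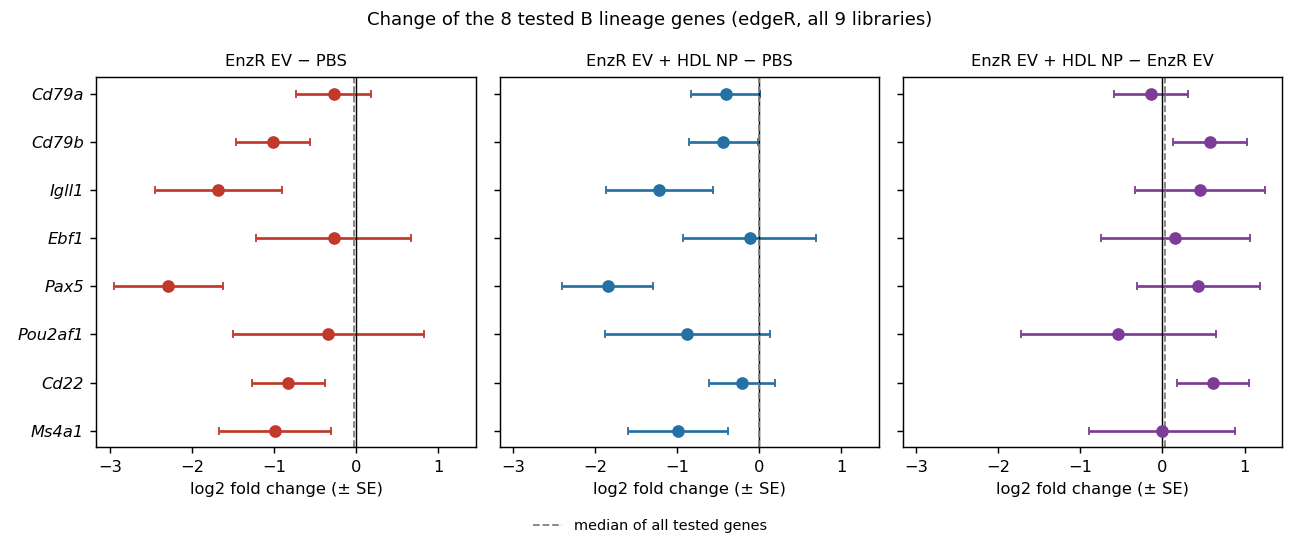
Log2 fold change with its standard error for the 8 fitted B lineage genes in 3 comparisons (edgeR, 9 libraries), with the median of all tested genes dashed. All 8 lie below 0 against PBS in both vesicle groups, with Pax5 lowest at −2.29 and −1.85, while values for EnzR EVs + HDL NPs against EnzR EVs fall on both sides of 0.

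Some of the genes shared an order of mice within the groups. The mouse numbered 1 had the highest of the 3 values in all 3 groups for 5 of the 9 genes (Cd79a, Igll1, Ebf1, Pou2af1 and Ms4a1), against 10.3% of all genes tested. The Igll1 value of EnzR EVs replicate 1 rests on the 2 counts given above. The other 4 (Cd79b, Vpreb1, Pax5 and Cd22) had no replicate number that was highest in every group, and Cd79b was lowest in replicate 1 of the PBS and EnzR EV groups. All 9 genes summed to 25.3, 20.0 and 28.7 CPM in the PBS mice, 25.2, 12.2 and 10.5 after EnzR EVs, and 25.4, 14.1 and 9.92 after EnzR EVs + HDL NPs, highest in replicate 1 of both vesicle groups but in replicate 3 of PBS. Without Cd79b, which was left out after its values were seen because it is the most abundant and ran otherwise, they summed to 19.9, 9.89 and 16.7 CPM in the PBS mice, 23.0, 6.44 and 5.91 after EnzR EVs, and 14.6, 7.93 and 6.29 after EnzR EVs + HDL NPs. This pattern was noticed in the data and carries no test, and no label says what a replicate number stands for. PBS and EnzR EVs replicate 1 were rich in Rn45s and had the lowest totals, but EnzR EVs + HDL NPs replicate 1 had 15602936 counts and 0.763% Rn45s.

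Markers of other cells moved with that order in part. The 6 basophil and mast cell genes summed to 234, 109 and 118 CPM in the PBS mice, 212, 91.1 and 80.6 after EnzR EVs, and 157, 34.1 and 33.8 after EnzR EVs + HDL NPs, again highest in each mouse numbered 1. Prss34 and Gata2 were the only 2 of the 6 that were highest in replicate 1 of every group. Replicate 1 was highest for 3 of the 6 genes in the PBS group, 2 in the EnzR EV group and 6 after EnzR EVs + HDL NPs. In EnzR EVs replicate 1, Cpa3 (6 counts) and Fcer1a (0 counts) were the lowest of that group, and Mcpt8 (29 counts) and Ms4a2 (5 counts) intermediate. The 10 NK cell genes also summed highest in each mouse numbered 1, with 3 of them at 0 in EnzR EVs replicate 1. Their sums were 65.8, 50.9 and 61.7 CPM in the PBS mice and 82.9, 57.4 and 66.3 after EnzR EVs. After EnzR EVs + HDL NPs they were 61.6, 32.1 and 35.1. The 13 neutrophil genes were lowest in replicate 1 of the PBS (58412 CPM) and EnzR EV groups (34207 CPM), and intermediate in that of EnzR EVs + HDL NPs (105069 CPM). The T cell genes, 12 of 14 in the files, summed to between 10.7 and 20.5 CPM, with 0 to 5 of them at 0 in a library. The part of these in the B lineage values was not tested. With the 3 libraries numbered 1 left out, a choice made after seeing the data, 7 genes were fitted, without Vpreb1 and Ebf1. All 7 were below 0 against PBS after EnzR EVs (median −1.17) and after EnzR EVs + HDL NPs (median −1.20). Still 0 of the 7 passed by edgeR, where 2 and 1 of the 12530 genes did. At an unadjusted p under 0.05 by edgeR were 5 and 4 of the 7, against 9.51% and 4.65% of the 12530 genes in either direction. This choice drops the mouse with the highest B lineage sum in both vesicle groups (25.2 and 25.4 CPM), but not in the PBS group. It therefore favours lower values, and these medians and counts are no support for them. The shares of all genes were not selected in this way and are no measure for these counts.

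**Figure D5:**
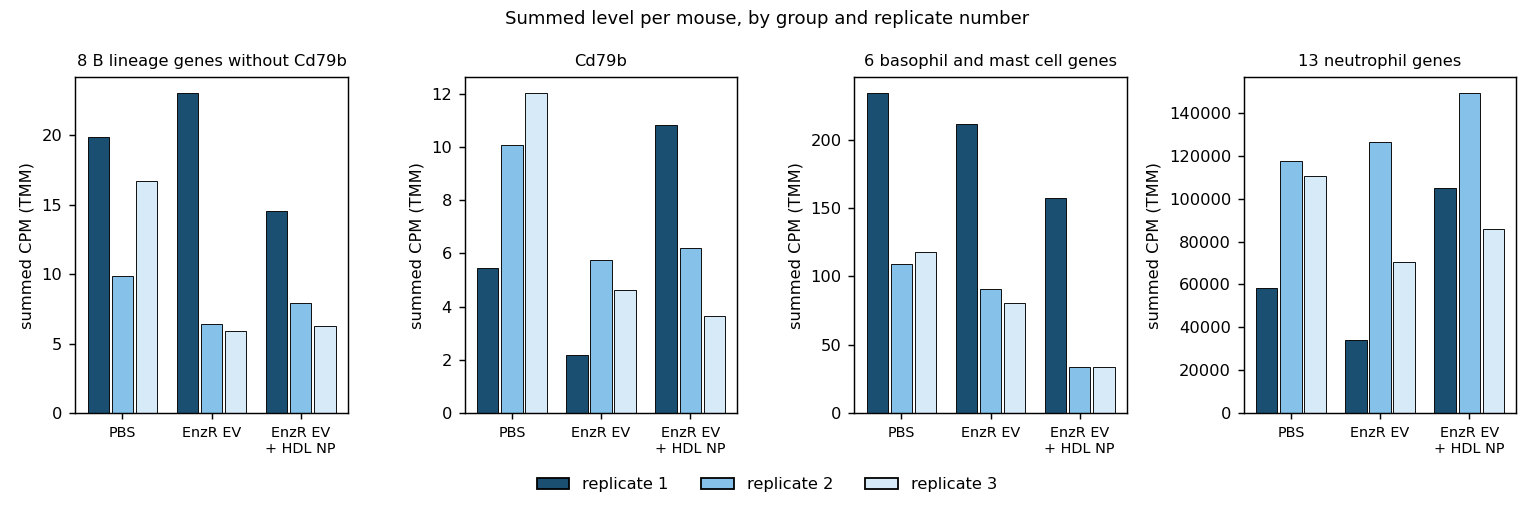
Summed CPM per mouse of the B lineage genes without Cd79b, of Cd79b, of 6 basophil and mast cell genes and of 13 neutrophil genes, by group and replicate number. The mouse numbered 1 is highest in each group for the B lineage sum without Cd79b (19.9, 23.0 and 14.6 CPM). The same holds for the basophil and mast cell sum, though of its 6 genes only Prss34 and Gata2 were highest there in every group. It does not hold for Cd79b or the neutrophil genes.

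Other genes of the lineage were listed apart from these 9. Of 70 listed, 52 were matched by symbol and 44 were fitted; none of the 15 immunoglobulin symbols matched. By edgeR 0 of the 44 passed in any comparison. After EnzR EVs 35 of 44 log2 fold changes were below 0 (median −0.31), after EnzR EVs + HDL NPs 32 of 44 (median −0.33), and between the vesicle groups 22 of 44. The early progenitor genes had 8 of 10 below 0 after EnzR EVs, the B cell identity genes 20 of 23 and the plasma cell genes 7 of 11. At an unadjusted p under 0.05 after EnzR EVs, 4 of the 44 were lower, against 1.92% of all genes tested: Irf4, Igj, Cecr2 and Faim3, the last 3 named after their values were seen.

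The 4 most abundant genes of each list with matches, 12 in all, include several that myeloid cells also use. Btk, a kinase downstream of the B cell receptor, ranged from 82.9 to 116 CPM over the 9 mice, and Xbp1, a factor of the secretory response, from 150 to 205 CPM. Their log2 fold changes after EnzR EVs were −0.01 and 0.23 (adjusted p = 0.993 and 0.928 by edgeR). Irf4, a regulator of plasma cells and of some myeloid cells, was at 15.1, 11.4 and 13.5 CPM after PBS, 7.13, 4.31 and 5.20 after EnzR EVs and 9.18, 8.76 and 7.82 after EnzR EVs + HDL NPs. These 3 groups did not overlap, and the log2 fold change over PBS was −1.35 after EnzR EVs (standard error 0.244; edgeR adjusted p = 0.650) and −0.63 with HDL NPs (edgeR adjusted p = 1.00).

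Sox4, a transcription factor of progenitors, was at 7.74, 1.84 and 2.63 CPM after PBS, 23.6, 1.49 and 4.14 after EnzR EVs and 3.26, 1.43 and 1.33 after EnzR EVs + HDL NPs. The groups overlapped, and the log2 fold change of 1.05 after EnzR EVs (standard error 0.932, adjusted p = 0.928 by edgeR) includes the 43 counts of replicate 1. Ell2, an elongation factor of plasma cells, was at 24.3, 25.5 and 26.5 CPM after PBS and 37.3, 27.04 and 29.4 after EnzR EVs, with no overlap and a log2 fold change of 0.27 (adjusted p = 0.928 by edgeR). Tcf3 was at 51.7, 47.3 and 46.7 CPM after PBS, 51.0, 42.3 and 46.9 after EnzR EVs and 36.1, 39.3 and 40.8 after EnzR EVs + HDL NPs. The last group lay under both others, with a log2 fold change over PBS of −0.32 (unadjusted p = 0.0527, adjusted p = 1.00 by edgeR). For the other 6 the log2 fold changes after EnzR EVs were −0.12 for Cd93, −0.27 for Erg, 0.065 for Bcl7a, 0.24 for Cd37, −0.22 for Cd55 and −0.075 for Txndc5, with adjusted p from 0.928 to 0.989 by edgeR and groups that overlapped.

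Rag1, which recombines antigen receptor genes and was named whatever its level, was as scarce as the 9. It was at 5.81, 1.73 and 2.12 CPM after PBS, 3.29, 0.692 and 0.473 after EnzR EVs, and 2.93, 1.43 and 0.629 after EnzR EVs + HDL NPs. It too was highest in each mouse numbered 1, as were 21 of the 44 listed genes. In EnzR EVs replicate 1 its value rests on 6 counts. Rag1 did not pass after EnzR EVs, with a log2 fold change of −1.65 (adjusted p = 0.928 by edgeR).

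The gene whose profile over the 9 libraries was most like the mean profile of the 8 fitted genes was H2-Ob, a chain of the class II modulator H2-O found in B cells and itself among the listed identity genes. Its root mean square difference was 0.134 on the log2 CPM scale, where the median over all other genes was 0.687. H2-Ob was at 4.05, 2.70 and 3.95 CPM after PBS, 3.84, 1.38 and 1.66 after EnzR EVs, and 3.04, 1.67 and 1.68 after EnzR EVs + HDL NPs. The next 7 were Rras2, Nmnat3, Dnmt3b, Hdac9, Slc45a3, Cplx2 and Dock6, with differences from 0.256 to 0.293.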

How the data were processed

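Stranded total RNA-seq libraries, depleted of rRNA, were prepared from 200 ng of RNA and read from 1 end over 75 bp. What the authors deposited were unnormalized counts of reads per gene; per the labels, reads were trimmed with cutadapt 1.13, aligned to mm10 with STAR and counted with HTSeq 0.6.1p1. The strand setting of the counting is not given in the sources used here.

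The fit used edgeR 4.0.16 under R 4.3.3, with TMM scaling, filterByExpr (12553 genes passed), a robust quasi-likelihood model of all 9 libraries with 1 coefficient per group, and Benjamini-Hochberg adjustment over all genes at 0.05. Log2 CPM values (prior count 2) of single genes were permuted exactly and two-sided, with 0.10 as the lowest p for 3 mice against 3. DESeq2 1.42.0 and limma 3.58.1 were alternatives, and the fit of each tool was tested on simulated data for EnzR EVs against PBS. Coordinates and exon lengths came from GENCODE M21 on GRCm38, the mm10 assembly, by symbol (89.6% of genes).

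The genes and lists were chosen with earlier results of these data known. All 9 genes are named, with Rag1, the 4 most abundant genes of each further list, and the 8 closest profiles; 1 further gene of the rule is not reported here. PBS replicates 2 and 3, the closest pair within a group, differed beyond sampling noise (chi-square of 4.48 per gene). Same-numbered mice of the PBS and EnzR EV groups deviated together (r across genes of 0.473, 0.492 and 0.131), so replicate number was tried as a block. Over all group pairs r was above 0.1 in 6 of 9 same-numbered pairs (−0.18 to 0.49) and in 6 of 18 others (−0.53 to 0.43).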

Additional observations from a re-analysis of the deposited data

How the results depend on the processing

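Among the B lineage genes that each setting could fit, 0 were called by DESeq2, limma's voom, other scalings and filters, the fit of the compared groups only, the replicate block, or with libraries left out. Pax5 could not be fitted without PBS replicate 2 or 3, without replicate 2 of either vesicle group, or with the libraries of EnzR EVs and PBS only or of the vesicle groups only. The block left 0 called and all 8 below 0 in both comparisons with PBS, and 3 in place of 2 were lower at an unadjusted p under 0.05 for both vesicle groups against PBS. Over all genes, where edgeR called 0, the block called 1 for EnzR EVs against PBS and 2 for both vesicle groups against PBS, and the highest count in any setting was 14, by DESeq2 in both of these and without the libraries rich in Rn45s in the second. A minimum of 10 counts in every library left 0 of the 9 genes, so it gave no values. Scaling by library size only shifted the median of all genes to −0.18 for EnzR EVs against PBS and 0.24 between the vesicle groups. Depth limits Vpreb1 and Pax5 most. Leaving out the 3 libraries numbered 1, or the 3 rich in Rn45s, was chosen after seeing the data. The cause of the changes below was not tested.

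Of the 8 genes fitted with all libraries, the number below 0 ran from 5 to 8 for EnzR EVs against PBS when 1 replicate was left out, and from 0 to 5 for EnzR EVs + HDL NPs against EnzR EVs, where it was 1 with voom, 1 with library size only, 0 without the 2 lowest totals and 0 without the libraries rich in Rn45s. With Vpreb1, which some of these fits include, the first reached 9 of 9 without EnzR EVs replicate 1 and the last was 1 of 9. Among the fold changes of single genes, 566 kept their direction and 37 reversed. Against PBS, EnzR EVs gave 0.22 for Ebf1 and 0.30 for Pou2af1 by DESeq2, and with 1 replicate left out −1.30 to 0.77 and −2.52 to 0.52. EnzR EVs + HDL NPs gave 0.22 for Ebf1 without the 2 lowest totals and without the libraries rich in Rn45s (−0.48 to 0.22 with 1 replicate left out), and −0.54 to 0.21 for Cd22. Both vesicle groups gave 0.010 for Ebf1 by DESeq2 (−0.70 to 0.33 with 1 left out). Between the vesicle groups, DESeq2 gave −0.41 for Ebf1 (−0.87 to 1.21 with 1 left out), and voom 0.73 for Pou2af1 and 0.21 for Ms4a1. Library size only gave 0.084 for Cd79a and 0.24 for Ms4a1, and no filter 0.044 for Ms4a1. Without the 2 lowest totals Pou2af1 was at 1.65, Ms4a1 at 0.53 and Cd79a at 0.14. Without the libraries rich in Rn45s they were at 1.37, 0.98 and 0.19. Without the libraries numbered 1, Cd79b was at −0.091, Igll1 at −0.17 and Pou2af1 at 1.04. With 1 replicate left out, Pou2af1 ran from −1.39 to 1.66, Ms4a1 from −0.60 to 0.52, Cd79a from −0.39 to 0.14 and Igll1 from −0.44 to 0.81.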
